A study of Mus musculus with 6 samples.

Results

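The comparison concerned a pair of Mettl3 mutant lines of mouse E14TG2a embryonic stem cells, a feeder-independent line kept here in N2B27, a serum-free medium. In the KO line the endogenous gene had been disrupted with CRISPR/Cas9. In the D395A line CRISPR/Cas9 and homology-mediated end joining had been used to place a substitution in the catalytic motif. The comparison takes 4 of the 6 libraries of the series, 2 from the METTL3-knock-out and 2 from the METTL3 D395A genotype, chosen by their genotype labels. The other 2 libraries are unmodified E14TG2a cells (WT), whose levels are given beside those of the mutants as a background. All 3 groups share the parental line and the medium, and the labels name no added agent. The labels name 1 line per genotype and no clones, so a difference between the genotypes and a difference between the particular lines cannot be told apart. They do not say whether the 2 libraries of a line came from separate cultures. The p-values below measure only the spread between libraries of a group, and this spread includes the WT pair, which was the closest of the 3 pairs.

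METTL3 is the subunit that transfers the methyl group in the machinery behind N6-methyladenosine (m6A) of RNA, and METTL14 is the partner that holds the RNA. A knockout takes away the protein as well as its activity, whereas a substitution in the catalytic motif is designed to take away the activity and leave a protein that can still meet its partners. In mouse embryonic stem cells m6A is known for marking messengers of pluripotency factors for decay, and cells without it are known for a hindered exit from the naive state. The contrast therefore asks what separates a line without METTL3 from a line with a mutated METTL3. The design text places the study in work on m6A and circular RNA. Neither m6A nor circular RNA was analysed here.

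Gene counts ranged from 22859491 to 35851584 in the 4 mutant libraries, with D395A replicate 1 the shallowest. Reads outside annotated genes made up 37.3% and 33.8% of all count lines in D395A replicates 1 and 2, against 31.1% and 22.3% in KO. Replicates of a group were close in most genes. Levels are given as CPM, the counts scaled to a common library size after correction by trimmed means. Among genes with at least 2 CPM 57 of 11693 differed at least 2-fold between the KO libraries, 44 of 11885 between the D395A libraries and 0 of 11696 between the WT libraries, with 0.1 CPM added to each level. Of the 57 in KO, 51 were higher in replicate 1, and 51 (89.5%) share exon bases with an antisense gene, against 31.3% of all these genes. In D395A, 43 of the 44 were higher in replicate 1. Of those 43, 26 were also at least 2-fold higher in KO replicate 2 than in KO replicate 1, at any level in KO. These 26, looked up after the values were seen, included genes of the forebrain and of neurons. Nrxn3, a synaptic adhesion protein, stood at 0.0284 and 1.70 CPM in KO replicates 1 and 2 against 4.64 and 0.0277 CPM in D395A. The difference between the mutant lines passed the test for 2 of the 26 genes, and counts below are also given without D395A replicate 1 and KO replicate 2 where that moved them by more than 1.5 times.

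Markers of embryonic stem cells were present in every library. All 10 on the list were measured, and their summed level was 4515 and 4547 CPM in KO, 2359 and 2519 CPM in D395A and 4130 and 4160 CPM in WT. Markers of cells that do not belong in the culture summed to 22.6 to 22.8 CPM (fibroblast feeders, 10 genes) and 16.8 to 19.7 CPM (blood, 8 genes) in KO, and to 17.1 to 17.4 and 9.63 to 10.4 CPM in D395A. In WT these sums were higher, at 28.3 and 28.2 CPM for feeders and 24.8 and 23.4 CPM for blood. Pdgfrb (14.9 to 15.1 CPM in KO against 7.92 to 8.51 CPM in D395A) and Cd68 carried most of these sums in KO. In D395A they were still the largest members but carried less of the sums, and single markers went the other way. Acta2, smooth muscle actin, was at 0.370 and 0.144 CPM in KO against 5.54 and 5.13 CPM in D395A, with 0.0659 CPM in WT. Dcn went from 0 and 0.202 CPM to 1.62 and 0.943 CPM, Col3a1 from 0 to 0.511 and 0.638 CPM, and the myeloid integrin Itgam from 0.427 and 0.115 CPM to 3.19 and 3.02 CPM. Of the 6 feeder markers that could be tested, 3 were higher, all by 2-fold or more, and 3 lower, with a median of 1.38 (-0.92 without D395A replicate 2). The part of such cells in the results below was not tested. The haemoglobin genes Hbb-bt and Hba-a1 were at 0 in all 4 mutant libraries. Endothelial markers, of which Pecam1 is also made by mouse embryonic stem cells, summed to 144 CPM in both KO libraries. Their sums were 75.3 and 86.4 CPM in D395A and 368 and 375 CPM in WT, and the endothelial sialomucin Emcn was at 0. In bulk RNA, fewer cells of a type and less RNA per cell cannot be told apart, which holds for every level below.

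The 2 mutant lines differed widely. Of 15663 genes tested, 7889 (50.4%) passed edgeR's quasi-likelihood test at a Benjamini-Hochberg adjusted p of 0.05. D395A was higher than KO in 4154 (26.5%) and lower in 3735 (23.8%), and the median log2 difference over all genes tested was 0.04. At a difference of 2-fold or more, 2497 genes were called (15.9%), with 1313 higher (8.38%) and 1184 lower (7.56%) in D395A. Each difference below is log2 of D395A over KO with its standard error, so 1 is a doubling. When each of the 6 libraries was left out in turn, 1888 of the 2497 genes (75.6%) were called in the same direction every time. Every list below should be read against these shares, since about 1 gene in 4 was called in each direction.

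**Figure D1:**
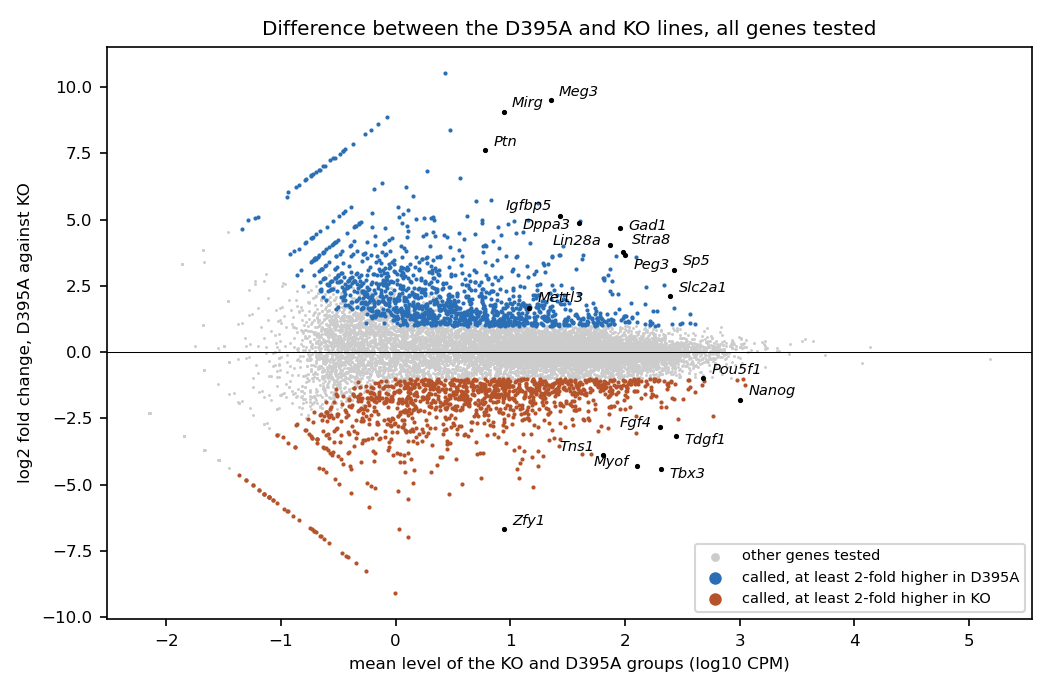
Each point is 1 gene tested that had a count in a mutant library. The horizontal axis is the mean level of the KO and D395A groups (log10 CPM), the vertical axis the log2 difference of D395A against KO, blue and brown mark genes called at 2-fold or more and higher or lower in D395A, and names mark genes of the text. The stripes at the left are genes at or near 0 counts in 1 group, whose fitted value depends on a prior. Meg3 and Mirg lie at the top, and Tdgf1, Tbx3 and Nanog are the abundant transcripts far below 0.

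Mettl3 itself (GRCm38 chr14:52294841-52305128, minus strand) was at 7.82 and 6.17 CPM in KO, 21.1 and 23.4 CPM in D395A and 30.0 CPM on average in WT. The D395A libraries lay above the KO libraries without overlap, and the difference was 1.67 ± 0.12 (edgeR, adjusted p = 1.2e-07). Exons of Mettl3 overlap the opposite-strand gene Tox4 over 18.4% of their length, and the strand setting of the counting is not given, so reads of the 2 genes cannot be told apart there. Smaller or similar overlaps hold for Pou5f1, Lef1, Sox21, Igf2bp3, Dll1 and Cdk4. Its partner Mettl14 was at 19.3 and 20.8 CPM in KO against 23.3 and 27.2 CPM in D395A, a difference of 0.34 ± 0.09 (adjusted p = 0.0064). Without D395A replicate 2 that difference was 0.21 and did not pass (adjusted p = 0.0925). Wtap, the subunit that targets the complex, went the other way, with 249 and 258 CPM in KO, 187 and 195 CPM in D395A and 95.3 CPM in WT (-0.41 ± 0.06, adjusted p = 0.00012). Both mutant lines thus stood above WT for Wtap, the KO line more so.

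Of 13 writer genes measured, 5 were called higher and 3 lower, with a median of -0.06. Rbm15, an RNA-binding subunit of the complex, was lower in D395A (-0.61 ± 0.06), and its relative Rbm15b was among those higher. Mettl16, which methylates U6 RNA and the Mat2a messenger, fell from 77.0 and 76.3 CPM in KO to 47.0 and 49.5 CPM in D395A. Trmt112, a stabilising partner of several methyltransferases, was higher by 0.55 ± 0.07, with 39.1% of its exons under an opposite-strand gene. Among 16 readers and erasers edgeR called 3 higher and 0 lower (5 and 1 at an unadjusted p under 0.05, 3 and 1 with DESeq2, 4 and 0 with limma-voom). The difference was 0.61 ± 0.07 for Hnrnpa2b1, 0.60 ± 0.07 for Igf2bp3 and 0.24 ± 0.06 for Igf2bp2, all RNA-binding proteins linked to m6A. Without KO replicate 1, Igf2bp2 stood at 0.22 and did not pass (adjusted p = 0.057, edgeR). Hnrnpa2b1 and Igf2bp3 lie on chromosome 6. Without D395A replicate 1 there were 6 higher, and without both it and KO replicate 2 there were 9. The decay-promoting reader Ythdf2 (-0.05 ± 0.07) and the erasers Alkbh5 (0.09 ± 0.07) and Fto (0.17 ± 0.07) did not pass. For Ythdf2 the mutant libraries lay between 294 CPM in D395A replicate 1 and 334 CPM in KO replicate 2, above WT.

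The study concerns circular RNA, and 30 genes that act in its formation, export and decay were measured. D395A was higher in 9 of them and lower in 9, with a median of -0.02, and without KO replicate 2 the number lower was 5. The epithelial splicing factor Esrp1 rose from 0.540 and 0.951 CPM to 4.47 and 4.35 CPM. The neuronal splicing factor Nova2 fell from 10.9 and 9.85 CPM to 3.58 and 2.58 CPM, with 31.7% of its exons under an opposite-strand gene. Mbnl2 and Mbnl3, of the muscleblind family that binds introns beside circularised exons, moved in opposite directions, by -0.88 ± 0.06 and 0.73 ± 0.11.

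Transcripts of the naive pluripotent state were mostly lower in D395A than in KO. Of 22 genes measured, 15 were called lower and 5 higher, and the median was -0.85. Nanog, a transcription factor that keeps cells naive, was at 1545 and 1609 CPM in KO, 441 and 470.3 CPM in D395A and 920.5 CPM in WT, so KO lay above WT and D395A below it. The difference was -1.79 ± 0.07 (adjusted p = 6.1e-10). Tbx3, which acts upstream of Nanog, was at 412 and 380.2 CPM in KO, 17.7 and 19.2 CPM in D395A and 282 CPM in WT (-4.42 ± 0.08, adjusted p = 4.8e-12). For both genes all D395A libraries were low and the groups were far apart. Klf4 (-1.28 ± 0.06) and Esrrb (-0.60 ± 0.08) were lower as well, each with KO above WT. Tdgf1, the co-receptor for Nodal, was at 512 and 486 CPM in KO against 52.0 and 59.8 CPM in D395A, against 775 CPM in WT.

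A pair of genes on the naive list went strongly the other way. Dppa3, a gene linked to DNA methylation, was at 2.53 and 2.65 CPM in KO, 83.6 and 69.0 CPM in D395A and 26.4 CPM in WT (4.87 ± 0.12, edgeR, adjusted p = 3e-11). Gbx2, a homeobox gene downstream of LIF, was at 3.53 and 4.35 CPM in KO against 51.3 and 48.9 CPM in D395A (3.67 ± 0.10), with 43.5% of its exons under an opposite-strand gene. WT lay between the mutant lines for both. The LIF and STAT3 list, which shares members with the naive list, had 9 of 19 genes lower and 2 higher, among them Pim3 (-1.31 ± 0.07) and Tfcp2l1 (-1.24 ± 0.08).

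Core pluripotency genes were divided. Among 19, 6 were higher and 6 lower, with a median of 0.03. Pou5f1 was at 648 and 624 CPM in KO, 335 and 310.5 CPM in D395A and 477 CPM in WT (-0.98 ± 0.07, adjusted p = 1.5e-07). Sox2 was at 308 and 265 CPM in KO against 311 and 286 CPM in D395A. These overlap, and its difference of 0.06 ± 0.08 did not pass (adjusted p = 0.57). Lin28a, an RNA-binding protein that blocks let-7 maturation, was at 7.51 and 9.42 CPM in KO, 128 and 148 CPM in D395A and 80.6 CPM in WT, a difference of 4.03 ± 0.12 in favour of D395A. L1td1, an RNA-binding protein derived from LINE-1, went from 218 and 200.2 CPM in KO to 34.5 and 42.8 CPM in D395A.

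**Figure D2:**
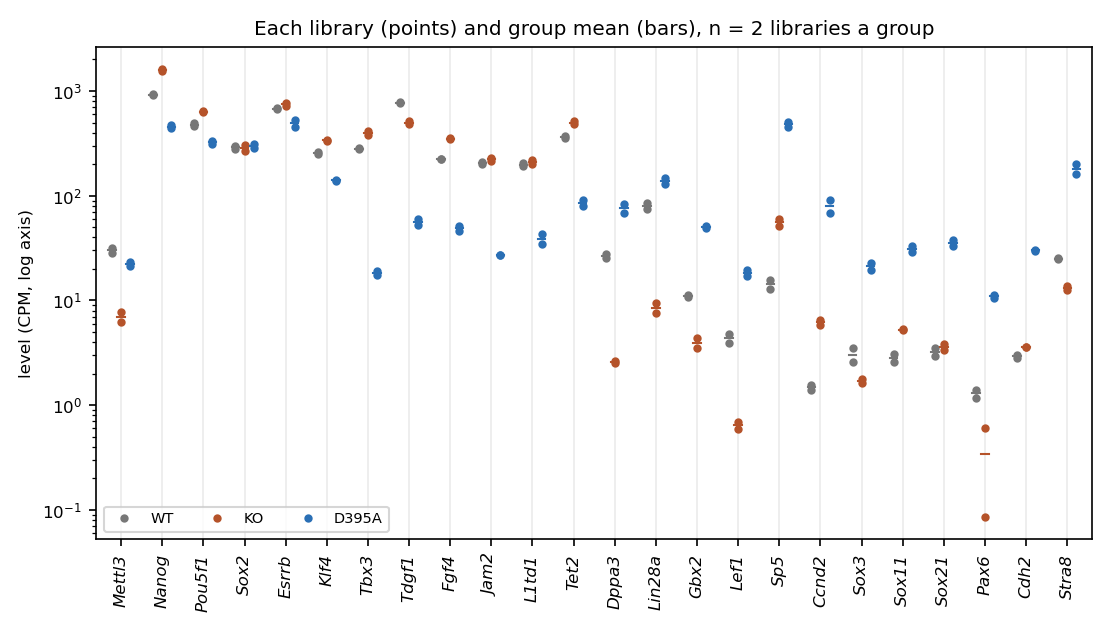
Level of selected genes (CPM, logarithmic axis) with 1 point per library, a bar at the group mean and the groups WT, KO and D395A side by side for each gene. From Nanog to Tet2, Sox2 aside, both D395A points lie below the KO points, and for Mettl3 and from Dppa3 to Stra8 they lie above.

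Formative and primed genes, which come up when naive cells begin to differentiate, were mostly higher in D395A. Of 20 measured, 14 were higher and 4 lower, and the median was 0.84. Lef1, a transcription factor of the Wnt pathway, was at 0.597 and 0.691 CPM in KO against 17.2 and 19.4 CPM in D395A, against 4.34 CPM in WT (4.82 ± 0.18, adjusted p = 6.1e-10). Id1, Sox3 and the N-cadherin gene Cdh2 were higher by 4.18 ± 0.19, 3.61 ± 0.17 and 3.06 ± 0.11. The 4 that were lower include Nodal and Etv4, and the number lower was 2 without D395A replicate 2 and in the fit of the 4 mutant libraries alone.

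Neuroectoderm genes shared this direction, with 12 of 19 higher, 2 lower and a median of 0.90 (0.58 without KO replicate 1). Pax6, a master regulator of eye and forebrain, was at 0.0853 and 0.605 CPM in KO against 10.6 and 11.3 CPM in D395A. D395A was far above both KO libraries, but these differ from each other, and the difference of 4.98 was 4.17 without KO replicate 1 and 6.94 without KO replicate 2. Sox21, a neural progenitor factor, was higher by 3.29 ± 0.12. Ncam1, a neural adhesion molecule, ran against the list with 124 CPM in both KO libraries and 17.0 and 17.4 CPM in D395A.

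The other lineage lists were less one-sided. Mesendoderm and primitive streak genes had 3 of 17 higher and 3 lower, with Cdx2 (5.03 ± 0.60) and Foxa2 (4.49 ± 0.23, and 5.15 without KO replicate 2) higher and Lefty2 (-2.95 ± 0.11) and Eomes (-2.33 ± 0.15) lower. Foxa2, a pioneer factor of endoderm, was at 0.597 and 1.30 CPM in KO, 20.2 and 22.5 CPM in D395A and 0.106 CPM in WT. Of 17 extraembryonic endoderm genes, 8 were lower and 3 higher, with a median of -0.40. When chromosomes 8, 11 and Y were left out of the fit, which removes 3 of the 17, the number lower was 5 with a median of -0.22. Hnf4a, a regulator of visceral endoderm, (-3.09 ± 0.25) and the laminin gene Lama1 (-2.05 ± 0.08) were among the lower. Trophoblast genes had 7 of 15 higher and 4 lower. Fgfr2, the receptor that maintains trophoblast stem cells, was higher by 2.91 ± 0.15, while Eomes, which the lists share, was lower.

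Genes of the 2-cell-like state, a rare state of embryonic stem cells with transcripts of the early embryo, were higher in D395A. Of 12 measured, 10 were higher and 2 lower, and the median was 2.62. Zscan4d was at 0.910 and 1.07 CPM in KO against 16.3 and 13.8 CPM in D395A, against 0.769 CPM in WT. Zscan4b, Zscan4c and Zscan4f were higher by 4.55 ± 0.59, 3.76 ± 0.22 and 4.005 ± 0.30 (4.75 for Zscan4f without KO replicate 2). The Zscan4 and Usp17 genes of the list are near-identical copies whose reads the counting could split, so they do not count as independent genes. Calcoco2, an autophagy receptor on the same list, went from 50.3 and 47.5 CPM in KO to 5.45 and 4.74 CPM in D395A.

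Among 28 germline and meiosis genes, 11 were higher and 7 lower, with a median of -0.01. Stra8, the gatekeeper of meiosis, was at 12.6 and 13.8 CPM in KO, 199 and 162 CPM in D395A and 25.04 CPM in WT (3.77 ± 0.10, edgeR, adjusted p = 4.6e-11). Dmrt1, a testis regulator, was higher by 3.13 ± 0.09. The testis tubulins Tuba3a and Tuba3b were lower (-1.89 ± 0.09 and -1.57 ± 0.19) and are close copies of each other.

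Imprinted genes, expressed from 1 parental copy, contained some of the widest differences. Of 40 measured, 23 were higher in D395A and 10 lower, and the median was 0.95. At 2-fold or more the numbers were 18 and 3. The 35 outside chromosomes 6 and 10 had 18 called higher and 10 lower, with a median of 0.60. Meg3, a noncoding transcript of the imprinted cluster with Dlk1 and Dio3 (GRCm38 chr12:109541001-109571726, plus strand), had 1 and 3 counts in the KO libraries and 1063 and 1603 in D395A. In CPM, KO stood at 0.0284 and 0.0864, D395A at 45.3 and 44.4 and WT at 57.5 on average, so the KO line was the one far from WT. The difference was 9.52 ± 0.18, and 10.44 without KO replicate 2. Mirg, a microRNA host transcript of the same cluster (GRCm38 chr12:109729764-109749460, plus strand), had 2 counts in KO and 1026 in D395A, a ratio of 602 (exact 95% interval 166 to 4977, counting error only), with 11.2 CPM in WT.

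H19, a noncoding RNA next to Igf2, showed another arrangement. It was at 0.682 and 0.691 CPM in KO, 32.8 and 35.2 CPM in D395A and 0.891 CPM in WT, so D395A departed from both others (5.62 ± 0.15, adjusted p = 4.6e-11). Nnat, a membrane proteolipid of neurons, was at 0.398 and 0.0864 CPM in KO against 14.7 and 12.01 CPM in D395A. Its difference of 5.75 was 7.20 without KO replicate 1 and 5.04 without KO replicate 2. Peg3, a paternally expressed zinc finger gene, was at 14.7 and 14.5 CPM in KO, 177 and 195 CPM in D395A and 47.6 CPM in WT, and its antisense transcript Peg3os went from 0.370 and 0 CPM to 9.58 and 10.1 CPM. Peg3os was not placed in the annotation used here, so its overlap with other genes was not checked. The DNA methylation list was split, with 5 of 16 higher and 5 lower. Its lower members include Tet2, which oxidises methylcytosine (517 and 479 CPM in KO, 80.5 and 91.2 CPM in D395A, 363 CPM in WT), and Dnmt3l, a cofactor of methylation in the germline (-1.92 ± 0.16).

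HOX genes, which set position along the body axis, lie in 4 clusters. Of 10 HoxA genes measured, 7 were higher in D395A and 1 lower. In HoxB the numbers were 2 and 2 of 9, in HoxC 0 and 4 of 9, and in HoxD 0 and 2 of 7. For HoxC and HoxD no gene was higher at an unadjusted p under 0.05 either, nor with DESeq2 or limma-voom. Hoxa3 was higher by 4.49 (5.53 without KO replicate 1, 3.90 without KO replicate 2), with 25.4% of its exons under an opposite-strand gene. Hoxa2, at 0 and 0.403 CPM in KO against 4.86 and 3.60 CPM in D395A, passed edgeR's test (adjusted p = 0.00065) and neither that of DESeq2 (adjusted p = 0.259) nor edgeR's robust fit (adjusted p = 0.0531). Its fitted difference of 4.37 was 3.36 without KO replicate 1, and without KO replicate 2, when KO holds 0 counts, it depends on the prior (10.17). Hotairm2, a noncoding RNA of the HoxA cluster, had 2 counts in KO and 213 in D395A, a ratio of 125 (exact 95% interval 34.2 to 1039). Hoxb1 had 0 counts in KO and 66 in D395A, at least 25.8-fold higher against a floor of 3 counts over the KO group.

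At the other end of the paralog order Hoxb13 was at 4.58 and 3.31 CPM in KO against 0.128 and 0.194 CPM in D395A (-4.54 ± 0.45). The HOX list as a whole, 35 genes with 9 higher, 9 lower and a median of 0.21, had no settled direction. The median was -1.62 with 14 lower without D395A replicate 1, -0.29 without KO replicate 1, and -1.06 without D395A replicate 1 and KO replicate 2. It was 1.05 with 12 higher without KO replicate 2 and 0.92 without D395A replicate 2. It was -0.51 with limma-voom, and -0.42 with 4 higher under the stricter filter on low counts. HoxA lies on chromosome 6, and the 25 HOX genes outside chromosomes 6 and 10 had 2 higher and 8 lower.

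**Figure D3:**
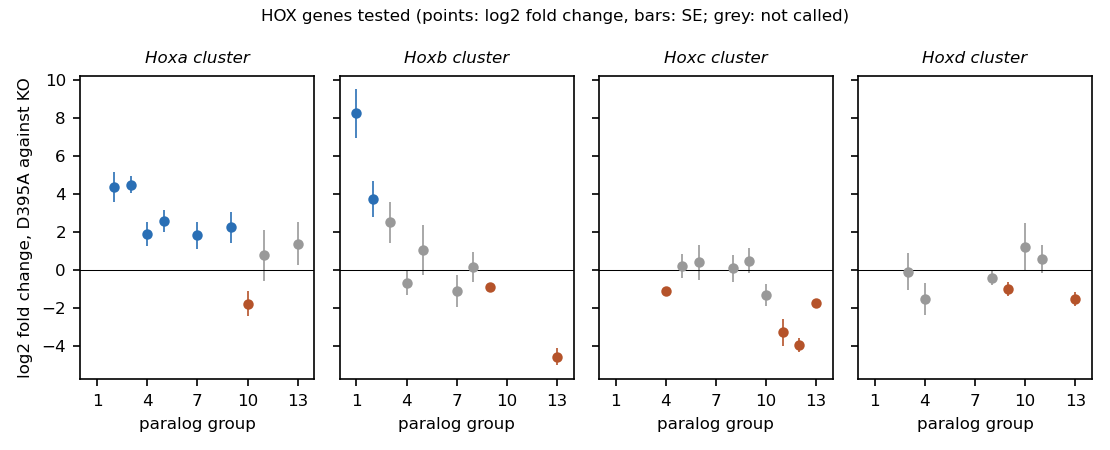
Log2 difference of D395A against KO with its standard error for HOX genes measured (1 HoxA gene is not drawn), by cluster (A to D) and paralog number, blue where called higher, brown where called lower and grey where not called. Hoxa2 and Hoxa3 stand at 4.37 and 4.49, values that move with the KO library left out, the value of Hoxb1 depends on the prior since KO holds 0 counts, and the called genes of HoxC and HoxD are all below 0.

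Genes that respond to Wnt signalling were higher in D395A or did not pass. Wnt ligands stabilise beta-catenin, which acts with LEF and TCF factors on target genes. Of 23 targets measured, 11 were higher and 0 lower (1 lower without KO replicate 2), with a median of 0.76. The median was 0.49 without D395A replicate 1 and 0.44 with the stricter filter. At an unadjusted p under 0.05 edgeR had 12 higher and 2 lower, and DESeq2 and limma-voom called 11 and 12 higher and 0 lower. Sp5, a zinc finger factor and direct target, was at 51.4 and 59.7 CPM in KO, 509.9 and 452 CPM in D395A and 14.3 CPM in WT (3.11 ± 0.10, adjusted p = 1.7e-10). Notum, a secreted enzyme that inactivates Wnt ligands, was at 3.47 and 3.31 CPM in KO against 56.1 and 52.2 CPM in D395A, with 38.1% of its exons under an opposite-strand gene. Ccnd2, a G1 cyclin, was at 5.89 and 6.54 CPM in KO against 68.2 and 90.3 CPM in D395A. The groups did not overlap for any of these, but the naming rule required that of Sp5. The share of all genes tested without overlap is not given here. Axin2, a feedback inhibitor of the pathway named here after its values were seen, was higher by 1.06 ± 0.08. Fzd2, a Wnt receptor outside the target list, was at 14.05 and 15.8 CPM in KO against 135 and 131 CPM in D395A.

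The stretch of the Sp5 promoter below is shown because Sp5 is a direct target that rose and holds a CTTTGAT, a common form of the LEF and TCF site. Capitals mark the match, which begins 104 bases before the RefSeq start site (chr2:70474772-70474871, plus strand, GRCm38.p6). CTTTGAT on either strand was found in 3.73% of 32851 RefSeq windows that run from 250 bases before to 50 after a start. Only 16 of the 23 Wnt targets had a window, and Sp5 was the only 1 of them with CTTTGAT. It was found in 3.09% of the 12071 tested genes with a window. CTTTGAA, the other form searched, was found in 3 of the 16 (Dkk1, Sp8 and T), against 4.45% of those tested genes. With 16 windows the shares cannot be compared closely. A match describes the letters and is no evidence of binding.
Sp5: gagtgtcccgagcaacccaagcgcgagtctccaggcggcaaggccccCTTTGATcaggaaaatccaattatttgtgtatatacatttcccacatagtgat

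The TGF-beta family was examined by branch. On the Nodal and activin list, 5 of 15 genes were lower and 2 higher (5 higher without D395A replicate 1 and KO replicate 2), and the largest called differences were all falls. Nodal, the ligand, was at 74.6 and 72.9 CPM in KO against 12.8 and 13.2 CPM in D395A (-2.50 ± 0.08, adjusted p = 1.1e-10). Lefty2, an inhibitor induced by Nodal, was at 43.3 and 39.4 CPM in KO against 4.56 and 5.91 CPM in D395A. The co-receptor Tdgf1, above, fell by 3.15, and the inhibitory Smad7 fell by 1.57. On the BMP list 8 of 19 were higher and 6 lower. Id1 and Id3, transcriptional inhibitors that BMP induces, were at 0.663 to 0.796 and 1.93 to 2.16 CPM in KO and at 12.4 to 14.2 and 13.2 to 14.1 CPM in D395A.

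Of 20 genes that report ERK signalling, 15 were higher in D395A and 1 lower, with a median of 0.60. Dusp4, a phosphatase that ERK induces, was at 1.05 and 1.35 CPM in KO, 7.33 and 8.01 CPM in D395A and 1.99 CPM in WT (2.67 ± 0.21). The phosphatase Dusp6 was higher by 2.53 ± 0.26 (3.19 without KO replicate 2) and the feedback inhibitor Spry4 by 2.86 ± 0.21. For Dusp6 WT stood at 6.84 CPM, between the D395A libraries, and for Spry4 at 11.1 CPM, above both of them. KO was the line furthest from WT for Dusp6 and Spry4, whereas for Dusp4 it was D395A. The 1 lower gene was Etv4, an ETS factor, at 17.5 and 18.5 CPM in KO, 3.45 and 3.16 CPM in D395A and 59.1 CPM in WT. Fgf4, the ligand that activates ERK in embryonic stem cells, went against the list of its targets, at 356 and 347 CPM in KO, 46.3 and 52.0 CPM in D395A and 226 CPM in WT. The Notch list had 4 of 14 higher and 3 lower. The ligand Dll1, with 20.6% of its exons under an opposite-strand gene, was higher by 3.23 (4.195 without KO replicate 2) and the target Hes1 lower (-1.17 ± 0.08).

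The integrated stress response, in which ATF4 raises genes for amino acid supply and chaperones, was represented by 33 genes, most of them higher in D395A. Of the 33 edgeR called 24 higher and 0 lower, with a median of 0.59. The counts were also 24 and 0 at an unadjusted p under 0.05, 23 and 0 with DESeq2 and 24 and 0 with limma-voom. Atf4 itself was at 129.6 and 127 CPM in KO, 395.4 and 419.5 CPM in D395A and 369 CPM in WT (1.67 ± 0.07, adjusted p = 9.9e-10), so the KO line stood below the other lines. Slc7a11, the cystine transporter, was at 1.51 and 1.24 CPM in KO, 6.30 and 8.48 CPM in D395A and 3.75 CPM in WT (2.43 ± 0.21). Vldlr, a lipoprotein receptor, and Aldh1l2, a mitochondrial folate enzyme, were higher by 1.76 ± 0.11 and 1.72 ± 0.22. Ddit3, whose product CHOP acts late in the response, was at 5.43 and 5.42 CPM in KO, 5.37 and 5.91 CPM in D395A, with a difference of 0.06 that did not pass.

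Promoters of these genes were searched for TGATGNAA on either strand, the composite element that ATF4 binds with C/EBP factors. The motif was chosen after the values were seen. It was found in 10 of the 29 list members with a RefSeq window (34.5%), in 345 of the 12071 tested genes with a window (2.86%) and in 3.97% of all 32851 windows. The list gathers genes of the response that ATF4 drives, so a high share of this motif is no separate support. Of the 10, 7 were called higher in D395A, against 24 of all 33 genes measured on the list. Slc7a11 holds it on both strands. Asns, Atf3 and Trib3 also carry the motif and rose but are not shown. The 4 stretches below are examples from genes that carry the motif and rose. They come from RefSeq (GRCm38.p6), each is written in the direction of its gene, and capitals mark the motif or its reverse complement. They lie at chr3:50443617-50443716 (minus strand, Slc7a11), chr2:119351003-119351102 (plus, Chac1), chr19:27216774-27216873 (plus, Vldlr) and chr8:94386271-94386370 (plus, Herpud1).
Slc7a11: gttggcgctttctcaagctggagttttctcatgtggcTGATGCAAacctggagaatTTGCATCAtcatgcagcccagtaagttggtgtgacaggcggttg
Chac1: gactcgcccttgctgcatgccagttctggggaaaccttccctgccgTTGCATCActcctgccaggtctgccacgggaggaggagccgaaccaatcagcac
Vldlr: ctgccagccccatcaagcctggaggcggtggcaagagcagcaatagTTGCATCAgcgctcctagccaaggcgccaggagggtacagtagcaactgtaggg
Herpud1: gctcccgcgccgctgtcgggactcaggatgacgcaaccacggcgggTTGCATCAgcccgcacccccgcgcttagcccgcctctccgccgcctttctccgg

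Chac1, which degrades glutathione, was higher by 1.25 and Herpud1, a factor of protein disposal from the endoplasmic reticulum, by 0.75. The start of the motif lay 47 and 66 bases before the start site in Slc7a11, 193 in Chac1, 200 in Vldlr and 112 in Herpud1.

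Genes of glycolysis and the hypoxia response were also mostly higher in D395A. Of 33 measured, 21 were higher and 4 lower (7 lower with no filter on low counts), with a median of 0.30. Slc2a1, the main glucose transporter of these cells, was at 90.4 and 93.9 CPM in KO, 384 and 423 CPM in D395A and 481 CPM in WT (2.13 ± 0.07, adjusted p = 3e-10). Bnip3, a mitophagy receptor induced by hypoxia, was at 11.6 and 11.5 CPM in KO, 27.7 and 27.4 CPM in D395A and 92.7 CPM in WT, with 22.3% of its exons under an opposite-strand gene. Ldhb and Aldoc, a lactate dehydrogenase and an aldolase, were higher by 1.12 ± 0.06 and 1.05 ± 0.08. KO was the lowest line for Slc2a1 and Bnip3. Of the 33 genes, 9 lie on chromosomes 6 and 10, and the other 24 had 16 higher and 2 lower.

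ACGTG, the core of the site bound by HIF factors and also part of E-boxes, was found on either strand in 21 of 29 list members with a window (72.4%), against 3383 of the 12071 tested genes (28.0%) and 19.6% of all windows. The list gathers genes of the hypoxia response, so a high share of this core is no separate support. Of the 21 with the core, 13 were called higher, against 21 of all 33 genes measured on the list. The stretches of Slc2a1 (chr4:119108645-119108744, plus strand) and Bnip3 (chr7:138909562-138909661, minus strand) are shown as the largest rises of the list, from RefSeq (GRCm38.p6), with the core in capitals. In Bnip3 the matches of both strands overlap and make a CACGTG, an E-box.
Slc2a1: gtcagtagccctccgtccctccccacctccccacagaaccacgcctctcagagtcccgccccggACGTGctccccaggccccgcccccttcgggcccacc
Bnip3: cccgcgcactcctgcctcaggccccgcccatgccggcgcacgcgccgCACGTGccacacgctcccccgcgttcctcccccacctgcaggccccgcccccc

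Cholesterol and fatty acid synthesis followed with 23 of 31 genes higher, 2 lower and a median of 0.33. Mvd and Hmgcs1, enzymes of the mevalonate pathway, were higher by 1.09 ± 0.06 and 1.05 ± 0.06, and Lss and Idi1 by 0.97 ± 0.06 and 0.82 ± 0.07. Hmgcs1 stood at 193 and 203 CPM in KO, 408 and 412 CPM in D395A and 271 CPM in WT. These differences were small beside those of imprinted or Wnt genes and the replicates lay close together.

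Of 31 targets of p53, a factor that restrains growth after damage, 15 were lower in D395A and 6 higher (3 without KO replicate 2), with a median of -0.14. Trp73, a p53 relative, was at 15.8 and 12.6 CPM in KO against 2.73 and 2.97 CPM in D395A. Tigar, which restrains glycolysis, was at 209.9 and 219 CPM in KO, 57.5 and 70.3 CPM in D395A and 84.6 CPM in WT. Pmaip1, a trigger of apoptosis, and Rrm2b, a ribonucleotide reductase subunit, were lower as well (-1.55 ± 0.15 and -1.33 ± 0.10). Cdkn1a, the p21 cell cycle inhibitor, did not pass (0.11 ± 0.06, adjusted p = 0.18), with 367 and 385 CPM in KO against 408 and 403 CPM in D395A, above the 160.5 CPM of WT.

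Replication-dependent histones were higher in 37 of 56 and lower in 0, with a median of 0.38, but the count rested on D395A replicate 1. Without that library 18 were higher and 4 lower with a median of 0.16, and without it and KO replicate 2 the numbers were 21 and 5 with a median of 0.06. At an unadjusted p under 0.05 there were 41 higher and 1 lower with all libraries. DESeq2 called 23 higher and 0 lower, limma-voom 37 and 0, edgeR's robust fit 19 and a fit on the 4 mutant libraries alone 21. These transcripts lack a poly(A) tail, so they are seen in total RNA, and D395A replicate 1 also held the most reads outside genes. Its part in the count was not tested beyond leaving the library out. Hist1h1e, a linker histone, was at 276 and 253 CPM in KO, 613 and 501 CPM in D395A and 308 CPM in WT (1.07 ± 0.09). Among members with at least 2 CPM the largest called difference, Hist1h2an at 1.36, had replicates at 70.2 and 40.8 CPM in D395A and 35.9% of its exons under an opposite-strand gene. It did not pass in the robust fit (adjusted p = 0.0705).

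Of the G1 cyclins, kinases and inhibitors, 6 of 21 were higher and 4 lower. Of the 21 genes, 4 lie on chromosomes 6 and 10, and the other 17 had 3 higher and 3 lower. Cdk4, the partner of cyclin D, was higher by 0.65 ± 0.06, the inhibitor Cdkn1b by 0.52 ± 0.07, and the inhibitor Cdkn1c lower (-0.96 ± 0.18) with 30.7% of its exons under an opposite-strand gene.

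Matrix genes were mostly lower. Of 26 collagens, laminins and other matrix genes, 18 were lower and 7 higher (4 without D395A replicate 2, 3 with the stricter filter), with a median of -0.50. Nid1, a basement membrane linker, was at 984 and 979 CPM in KO, 166 and 202 CPM in D395A and 411 CPM in WT (-2.41 ± 0.09, adjusted p = 4.8e-10). The fibrillar collagens were unequal. Col5a1 was lower (-2.18 ± 0.08) and Col5a2 higher by 2.39 ± 0.21. Junction and epithelial-mesenchymal genes were split, with 13 of 28 higher and 11 lower. Zeb2, a repressor of E-cadherin, was at 0.398 and 1.76 CPM in KO against 25.04 and 24.95 CPM in D395A. Its difference was 4.54 (3.82 without KO replicate 1, 5.95 without KO replicate 2). The tight junction gene Cldn3 was lower (-1.79 ± 0.17).

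Genes that sense double-stranded RNA or respond to interferon had 6 of 24 higher and 9 lower. Ddx58, which encodes the sensor RIG-I, was at 5.55 and 5.68 CPM in KO against 19.9 and 20.7 CPM in D395A, and Mavs, the adaptor that it signals through, at 134 and 138 CPM in KO against 62.7 and 65.7 CPM in D395A. Polycomb genes had 10 of 26 higher (6 without D395A replicate 2) and 10 lower, with Epop (-1.09 ± 0.07) and Cbx7 (-1.05 ± 0.07) among the lower.

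Among large complexes, proteasome genes had 3 of 36 higher and 11 lower (1 and 6 without KO replicate 2), with a median of -0.06. Cytosolic ribosomal proteins had 26 of 90 higher and 6 lower, counts that moved with the library left out. There were 51 higher without D395A replicate 2, 15 without KO replicate 2 and 16 without either WT library, while the lower calls rose to 17 without D395A replicate 1 and to 25 without it and KO replicate 2. Rpl10l, a retrogene copy of Rpl10, (-1.34 ± 0.06) and Rpl19 (-1.06 ± 0.09) were the largest called differences at 2 CPM or more. Mitochondrial ribosomal proteins had 28 of 76 lower and 16 higher, led by Mrpl45 (-1.33 ± 0.06). Respiratory chain subunits outside chromosomes 6 and 10 had 24 of 76 lower and 8 higher. Over all chromosomes these subunits had 25 of 86 lower and 15 higher, with a median of -0.06. The number lower was 14 without either WT library, 12 with a median of 0.03 without D395A replicate 2, and 37 with a median of -0.17 without D395A replicate 1.

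**Figure D4:**
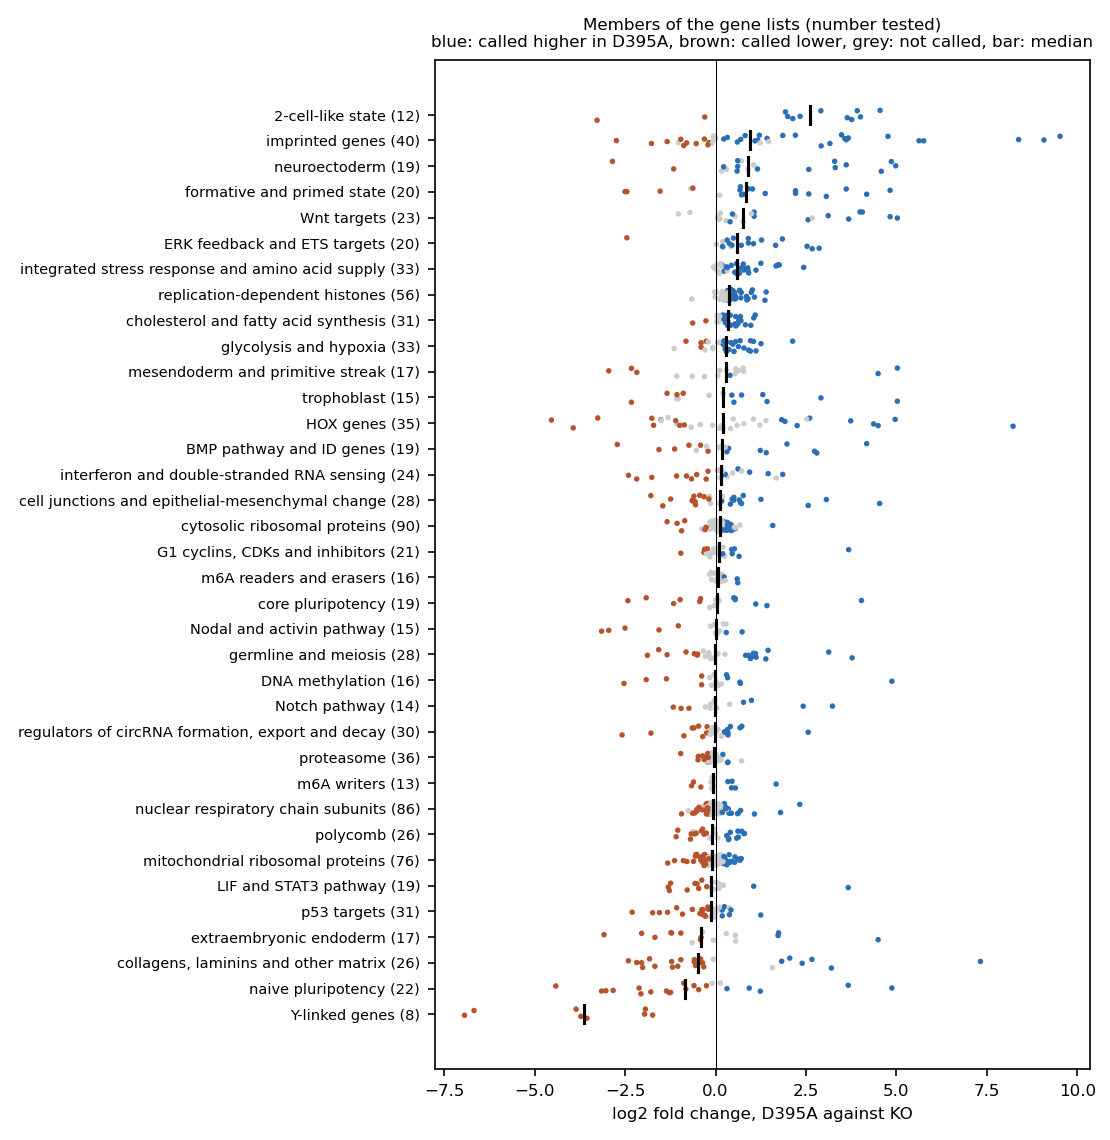
Log2 difference of D395A against KO (horizontal axis) for each member of the lists with at least 8 genes measured, blue where called higher, brown where called lower and grey where not called, with a bar at the median. The lists are ordered by median, from the 2-cell-like state at 2.62 to the Y-linked genes at -3.64.

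All 8 Y-linked genes measured were lower in D395A with edgeR, DESeq2 and limma-voom, with a median of -3.64. Uba1y was at 78.7 and 80.2 CPM in KO, 5.20 and 5.68 CPM in D395A and 25.5 CPM in WT (-3.86 ± 0.08). Zfy1, a zinc finger gene of the same chromosome, was at 19.3 and 15.8 CPM in KO, 0.170 and 0.166 CPM in D395A and 10.3 CPM in WT (-6.68 ± 0.23). Usp9y and Kdm5d were lower as well (-3.73 ± 0.15 and -3.56 ± 0.12). Usp9y was at 25.2 and 23.5 CPM in KO, 1.96 and 1.75 CPM in D395A and 0.698 CPM in WT. Kdm5d was at 47.7 and 50.5 CPM in KO, 3.62 and 4.57 CPM in D395A and 6.07 CPM in WT. Y-linked genes have close copies on the X chromosome, so reads could be shared between them. KO stood above D395A in every one of the Y-linked genes measured and above WT in all 4 named. D395A stood below WT for Uba1y, Zfy1 and Kdm5d and above it for Usp9y.

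On the other chromosomes the shifts were small. The median difference was 0.24 over 766 genes of chromosome 6 and 0.23 over 733 genes of chromosome 10, where 40.5% and 41.2% of genes were called higher. The X chromosome stood at 0.16 and chromosome 12, with the Meg3 cluster, at 0.13. The lowest autosomes were 2 and 5, both at -0.06. The copy number of these chromosomes was not measured. Nanog, Dppa3 and Stra8 lie on chromosome 6, with Nanog lower and Dppa3 and Stra8 higher in D395A. The part of the chromosome's shift in these differences was not tested.

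**Figure D5:**
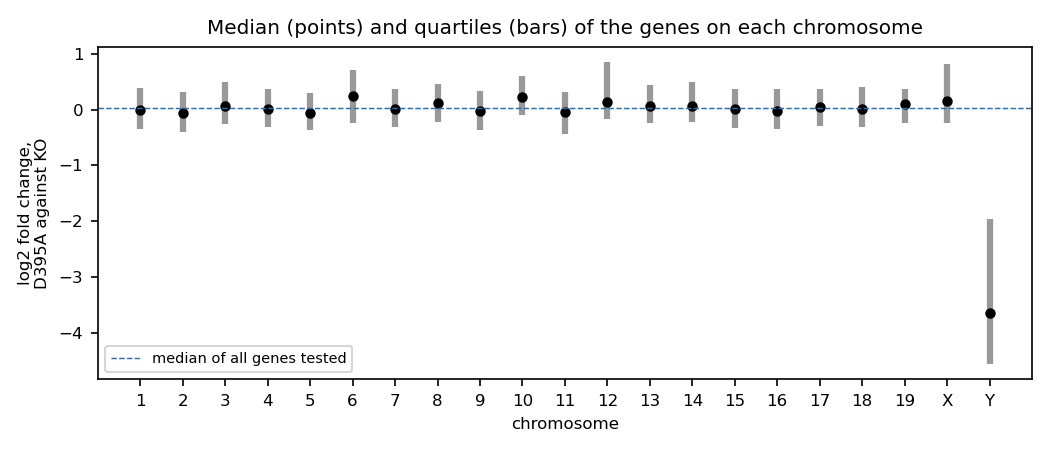
Median log2 difference of D395A against KO (points) with the quartiles (bars) for the genes of each chromosome, and the median of all genes tested (dashed, 0.04). Chromosomes 6 and 10 stand at 0.24 and 0.23 and the 8 genes of Y at -3.64.

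Among the abundant transcripts, 174 genes with at least 100 CPM in the higher line were called at 2-fold or more. The number of genes tested at that level is not given here. The count can therefore not be set against the 15.9% called at 2-fold over all genes tested. The largest rises among those without an antisense partner were those of Gad1, Stra8, Peg3, Gpx2, Cd24a, Fzd2, Sp5 and Gja1. Gad1, the enzyme that makes GABA, was at 5.89 and 7.43 CPM in KO, 169.6 and 176 CPM in D395A and 8.73 CPM in WT (4.70 ± 0.09, adjusted p = 5.6e-12). Gpx2, a glutathione peroxidase, was at 10.6 and 14.5 CPM in KO against 163 and 145 CPM in D395A. Cd24a, a surface sialoglycoprotein, was at 17.4 and 20.7 CPM in KO against 238 and 222 CPM in D395A. The gap junction gene Gja1 was higher by 2.90 ± 0.08. For Gad1, Cd24a and Gja1, WT was near KO.

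The largest falls of such transcripts without an antisense partner were those of Myof, Tns1, Tdgf1, Jam2, Emp1, Fgf4, Pou2f3 and L1td1. Tbx3 of the naive list fell as far and has a small antisense overlap. Myof, a membrane repair protein, was at 249 and 241 CPM in KO, 11.7 and 12.8 CPM in D395A and 129.6 CPM in WT (-4.31 ± 0.08, adjusted p = 4.8e-12). Tns1, which links integrins to actin, was at 121 and 119 CPM in KO against 7.41 and 8.65 CPM in D395A. Jam2, a junctional adhesion molecule, was at 228 and 216 CPM in KO against 27.0 and 27.1 CPM in D395A. The POU factor Pou2f3 (-2.78 ± 0.12) and the membrane protein Emp1 (-2.97 ± 0.07) were also lower. For Jam2 and Pou2f3, WT was near KO.

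The largest relative rises over all levels were in transcripts close to absent from KO. Ptn, a heparin-binding growth factor, had 4 counts in KO, all in replicate 1, and stood at 13.4 and 10.7 CPM in D395A. Car4 and Car3, carbonic anhydrases, had 1 and 2 counts in KO and 360 and 139 in D395A, ratios of 422 (exact 95% interval 75.3 to 16731) and 81.6 (22.2 to 680.1). Vtn, the adhesion protein vitronectin, was at 0.0853 and 0.0576 CPM in KO against 7.16 and 7.26 CPM in D395A. Igfbp5, which binds insulin-like growth factors, was at 1.42 and 1.56 CPM in KO against 51.4 and 53.9 CPM in D395A. Flt1, a receptor of vascular endothelial growth factor, was higher by 5.14 ± 0.30 and the chemokine gene Cxcl12 by 5.36 ± 0.93. Olfml2a and Ripply1 had 3 counts each in KO and ratios of 65.3 (21.97 to 319.96) and 48.9 (16.4 to 240.3).

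In the other direction, Sqor, a mitochondrial enzyme of sulfide oxidation, had 147 counts in KO and 1 in D395A, a ratio of 125 (exact 95% interval 22.1 to 4981), and was at 0 in WT. Spic, an ETS-family factor, was at 25.5 and 20.5 CPM in KO, 1.02 and 0.749 CPM in D395A and 19.3 CPM in WT. The fatty acid receptor Ffar3 and the inner ear protein Otog had 3 counts each in D395A and ratios of 50.3 (16.9 to 246.1) and 40.6 (13.6 to 199.3). Cxcl14, Rab17 and Tesc were lower (-4.98 ± 0.34, -4.52 ± 0.61 and -4.94 ± 0.51). Without D395A replicate 2 those of Cxcl14 and Rab17 were -6.39 and -5.66, and without D395A replicate 1 that of Tesc was -5.54.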

How the data were processed

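RNA of mouse E14TG2a embryonic stem cells was measured in 6 libraries, 2 each of the KO, D395A and WT genotypes, grouped by their titles. Ribosomal RNA had been removed and directional libraries prepared, per the labels' protocols. The deposited values are raw counts per gene symbol, 1 table a library, which the authors made with Trimmomatic 0.36, STAR 2.7 and HTSeq 0.11.2 on mm10, per the submitters' processing notes. For the counting, the strand setting and the annotation were not given in the sources used here.

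HTSeq's summary lines (29.0% to 44.2% of all lines) were left out of library sizes and tests. Counts of all 6 libraries were fitted in 1 model with edgeR 4.0.16 in R 4.3.3 (filterByExpr, TMM, estimateDisp, quasi-likelihood F test), in which WT helps to set the spread, and D395A was tested against KO with Benjamini-Hochberg adjustment over 15663 genes at 0.05. The biological coefficient of variation was 6.00%. Every p printed is an adjusted p of that fit, unless DESeq2 (1.42.0) or another alternative is named. Depth was 22859491 to 40476809 gene counts. A group at 0 counts was set to a floor of 3 counts (0.0429 CPM in KO, 0.0504 CPM in D395A), and intervals and floors cover counting error only. Tested on simulated data, the fit recovered most changed genes, and the share of false calls was above the adjusted p threshold.

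Positions and antisense exon overlap came from GENCODE M21 (GRCm38), which held 97.9% of 24984 symbols, and promoter windows from RefSeq (GRCm38.p6). Motifs were searched by exact match on both strands. The comparison, its members and the gene lists were chosen with earlier results of these data known. Always named are Mettl3, Mettl14, Wtap, Nanog, Sox2, Klf4, Pou5f1 and Esrrb. Beside them stand the 12 largest rises and falls at 2-fold or more, without overlap of the groups, with at least 2 CPM in the higher group, and with no antisense overlap, predicted genes or pseudogenes. The 8 largest at 100 CPM and up to 4 called members per list complete the rule. Some genes that the rule names are not reported here. Alternatives were other scaling (RLE, upper quartile), DESeq2, limma-voom 3.58.1, a robust fit, no filter or 1 CPM in 2 libraries, a replicate block, the 4 mutant libraries alone, leaving out Rn45s, leaving out chromosomes 8, 11 and Y, and leaving out each library. Leaving out D395A replicate 1 and KO replicate 2 together was added after seeing the data. The filter at 1 CPM and the fit without chromosomes 8, 11 and Y test fewer genes, so list counts under them can fall for that reason alone.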

Additional observations from a re-analysis of the deposited data

Results flagged for a closer look

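The share of count lines outside annotated genes was above the level of both WT libraries (30.2% each) in 3 of the 4 mutant libraries. It was 31.1% in KO replicate 1, 37.3% in D395A replicate 1 and 33.8% in D395A replicate 2, and 22.3% in KO replicate 2. These lines entered no comparison, and what lies in them was not analysed here.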

How the results depend on the processing

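The numbers of genes called, in either direction and with or without the 2-fold limit, stayed within 1.5 times the reported ones under all 19 alternatives, and 0 of the 7889 called genes were called in the opposite direction under any of them. Called genes ranged from 6918 to 7151 and 2-fold genes from 2166 to 2601 with 1 library left out, where a lone library is assumed to vary like the other groups. DESeq2 called 6933 genes (2284 at 2-fold), limma-voom 8203 (2714) and the fit of the 4 mutant libraries alone 7233 (2326).

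Same-numbered KO and D395A libraries did not deviate together (r = -0.21 across genes, which are not independent). The labels do not say whether a shared number marks a shared culture or day, and this correlation cannot show it. With the replicate block 7832 genes were called (2442 at 2-fold), and with the replicate numbers of the mutant groups crossed, a pairing added after the data were seen, 7716 (2542). The HOX median was -0.01 with the replicate block.

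Of 177 named genes, 10 lost their call under at least 1 alternative (Mettl14, Igf2bp2, Hoxa2, Hist1h2an, Phf19, Psma8, Hey1, Cubn, Tek and Col1a1), and the other named calls held in every alternative that tested the gene. Sox2, which was not called, changed sign. Its difference of 0.06 ranged from -0.05 to 0.16 with 1 library left out, was -0.0022 without D395A replicate 1 and -0.0486 without KO replicate 2, and was -0.109 without both (adjusted p = 0.0598, edgeR, with the spread taken from WT alone). The cause was not tested. Depth limits the genes with under 4 counts in 1 line, whose fitted differences moved with the library left out and are given as ratios.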
